A study of Homo sapiens with 15 samples.

Results

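The 3 samples exposed to the high concentration of dimethylamine (HD, 81.7 ppm) were compared with the 3 clean air control samples (CA), which received the same flow of air without dimethylamine. These 6 of the 15 samples of the series were taken by their sample labels. All samples were A549 cells, an established line from a human lung adenocarcinoma that resembles type II cells of the alveolus, grown at the air-liquid interface so that a vapour reaches the cells from the apical side. HD and CA cells were exposed for 1 h and left for 23 h, 3 times within 72 h, under 3 ml/min of air for each cm² of cells, and each sample pooled 2 wells. The remaining samples, 3 per group, were cells exposed to 14.9 ppm (LD, the low dose) or 41.1 ppm (MD, the mid dose) and non-exposed cells without flow (NEC). HD samples all came from exposure plate 6, whereas CA samples 1, 2 and 3 came from plates 1, 5 and 6, so that plate and concentration cannot be told apart between the doses of dimethylamine.

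Dimethylamine is a volatile, alkaline secondary amine with a fishy odour that irritates the airways. Epithelial cells under chemical stress are known to slow translation through the integrated stress response, to activate p53 and MAPK signalling and to release ligands and cytokines that act on neighbouring cells. Differentiated lung and liver-type cells also produce plasma proteins, alcohol dehydrogenases and membrane transporters, and A549 cells are known to make fibrinogen and complement.

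RNA was measured by quantitative RT-PCR on a panel of 296 genes. A level is given here as the negative of the threshold cycle (CT) of a gene after subtraction of the mean CT of GPN1 and TMEM184C, the 2 normalisation genes. It is therefore on a log2 scale, a higher value stands for more RNA, and a difference of 1 stands for a 2-fold difference. Levels of different genes cannot be set against each other, because each gene has its own primers. Differences are HD minus CA ± SE from limma, fitted over all 15 samples. A gene was called when the p adjusted over all 282 genes tested was under 0.05. P-values rest on the spread within groups, pooled over the 5 groups of 3 samples and shared in part between genes. In HD, MD and LD this is spread within a plate, and in CA and NEC spread between plates. How the HD response differs between exposure plates was not measured. In these bulk samples fewer cells of a kind and less RNA per cell cannot be told apart.

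HD sample 1 stood apart by its CTs before normalisation. The mean CT over genes with a product in all samples was 25.8, 25.3 and 25.0 in HD, against 25.0, 25.2 and 25.2 in CA. The mean CT of the normalisation genes was 25.6, 25.1 and 24.9 in HD, against 24.8, 25.0 and 24.9 in CA, a difference of 0.31 cycles (two-sided exact permutation test, p = 0.2, where 0.1 is the smallest p that 3 against 3 samples allow). Between 284 and 287 wells gave a product in HD and between 283 and 286 in CA. Without HD sample 1, all 215 genes called kept their direction and 203 kept their call. Of the cell type markers looked for, CDH1 and KRT18 were on the panel for epithelium and gave a product in all samples, whereas the surfactant genes that define alveolar type II cells were not among the genes measured. No fibroblast or endothelial marker was on the panel. The leukocyte marker CD79A, a chain of the B cell receptor and also a gene of this panel, gave a product in all samples.

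HD differed from CA in most genes of the panel. Of 282 genes tested, 215 were called (76.2%), 125 of them higher (44.3%) and 90 lower at HD (31.9%). The called genes had a median difference of 0.96 among those that rose and of -1.04 among those that fell, and the median over all genes tested was 0.14. In 218 genes (77.3%) no HD sample lay within the range of CA or the reverse, with all HD samples above CA in 127 (45.0%) and below it in 91 (32.3%). Without normalisation genes, which lowers the level of every gene in HD by 0.31 relative to CA, 174 genes were called, 74 higher and 100 lower, and the median was -0.17. Over 2-fold differences were called in 57 genes that rose (20.2%) and 49 that fell (17.4%). The study chose much of the panel for genes that had changed at HD in the same RNA, so these shares are not those of unselected genes and the direction of a gene list is no independent evidence. The number of called genes in each list given here stands against these shares of all genes tested, and a list with a share near 76.2% does not stand apart by its count.

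**Figure D1:**
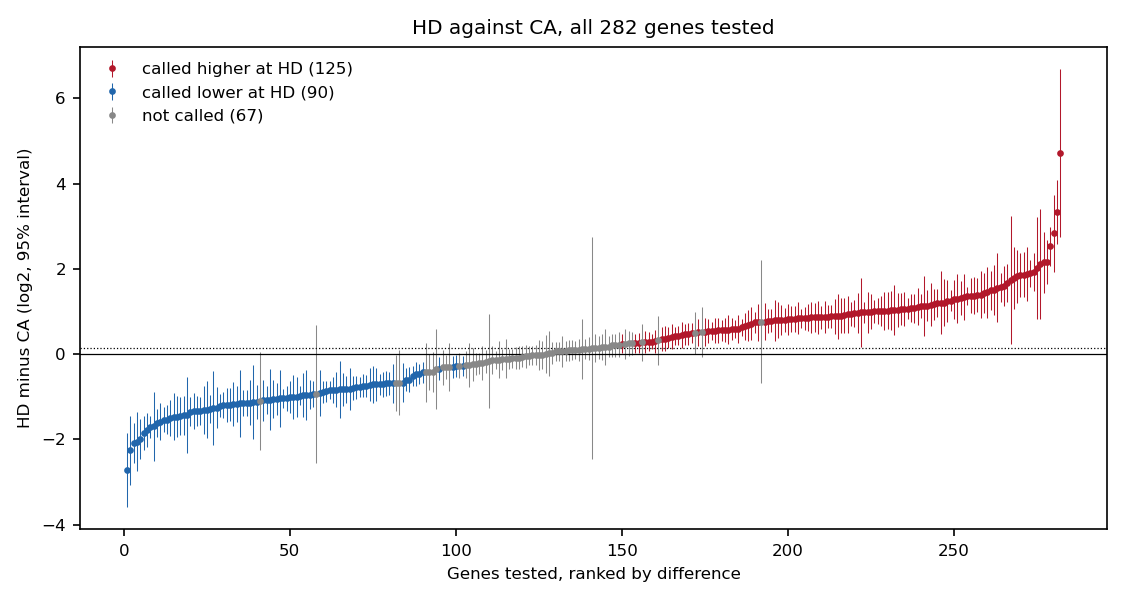
Difference of HD minus CA on the log2 scale for each of the 282 genes tested, ranked from the lowest to the highest, with the 95% interval from limma as vertical lines. Colours mark the 125 genes called higher at HD, the 90 called lower and the 67 not called, and the dotted line is the median of all genes tested (0.14).

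The integrated stress response is the programme by which cells reduce protein synthesis and induce repair and death genes after amino acid, redox or endoplasmic reticulum stress. All 4 of its genes on the panel rose at HD, with a median of 1.64, against 0.14 over all genes tested. DDIT3, the pro-apoptotic transcription factor CHOP, had levels of 2.60, 2.24 and 2.55 in HD, against 0.27, 0.42 and 0.19 in CA (4.49-fold higher, adjusted p = 7.69e-06). The lowest HD sample lay well above the highest CA sample, and the CA samples differed among themselves by little. CHAC1, an enzyme that degrades glutathione, was at -2.12, -2.03 and -2.33 in HD, against -3.97, -3.80 and -3.74 in CA (1.67 ± 0.21). PPP1R15A, the phosphatase subunit GADD34 that restarts translation, was at 0.67, 0.73 and 1.38 in HD, against -0.79, -0.56 and -0.69 in CA (3.04-fold higher, adjusted p = 3.83e-05), with HD sample 3 the highest. The stress cytokine GDF15 had levels of 1.38, 1.41 and 1.24 in HD, against -0.34, 0.69 and 0.57 in CA (1.03 ± 0.27), and CA sample 1 was the lowest by a wide margin. Against the CA sample of plate 6 alone, GDF15 was at 0.77 and no longer passed (adjusted p = 0.113).

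The 300-base promoter window of PPP1R15A, from 250 bases before to 50 bases after the start site, is shown because its gene rose and it holds a full cyclic AMP response element. The sequence is from RefSeq (GRCh38.p14, chr19:48872171-48872470, plus strand), and the capitals mark the letters TGACGTCA, 58 bases before the start.
PPP1R15A: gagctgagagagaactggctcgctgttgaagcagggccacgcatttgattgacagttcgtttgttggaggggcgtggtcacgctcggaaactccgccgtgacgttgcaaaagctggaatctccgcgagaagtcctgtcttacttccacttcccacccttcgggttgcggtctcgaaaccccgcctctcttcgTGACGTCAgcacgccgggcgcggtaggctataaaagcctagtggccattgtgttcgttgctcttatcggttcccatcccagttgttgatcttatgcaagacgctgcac

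Target genes of p53, the transcription factor that halts the cell cycle after damage, were also higher at HD, with 4 of 4 called and a median of 1.06. GADD45A, a growth arrest gene, was at -1.01, -0.77 and -0.59 in HD, against -2.21, -1.76 and -1.91 in CA (1.17 ± 0.17). The nuclease AEN had levels of 0.66, 0.92 and 1.03 in HD, against -0.42, 0.00 and -0.11 in CA (1.04 ± 0.18, adjusted p = 1.98e-04). Both sets of samples were clearly separated. FAS, the death receptor, was at 1.04, 0.95 and 0.69 in HD, against -0.41, 0.13 and -0.26 in CA, and MDM2, the ligase that degrades p53, at 2.51, 2.48 and 2.60 in HD, against 1.90, 2.00 and 1.92 in CA, so that MDM2 showed the smallest rise of the group (0.59 ± 0.15). RPS27L, a ribosomal protein-like p53 target outside this list, rose by 0.96 ± 0.14, and the p53-regulated phosphatase gene PPM1D by 0.56 ± 0.13. Without normalisation genes MDM2 and PPM1D were at 0.28 and 0.25 and no longer passed (adjusted p = 0.238 and 0.314).

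ANKRD1, a cardiac-type ankyrin repeat protein and classic target of the YAP and TEAD factors, showed the largest rise among genes with a product in all wells. Its levels were -1.72, -1.68 and -0.88 in HD, against -5.10, -4.45 and -4.74 in CA (10.1-fold higher, adjusted p = 5.88e-06), and the gap between the lowest HD and the highest CA sample exceeded the range within either group. The receptor kinase AXL was at -0.20, -0.07 and 0.45 in HD, against -1.18, -1.33 and -1.44 in CA (1.38 ± 0.20) and smooth muscle actin ACTA2 at -0.96, -0.70 and -0.68 in HD, against -2.01, -1.47 and -1.66 in CA (0.93 ± 0.20). All 3 genes placed in the list of YAP and TGF-beta targets thus rose, while FN1, placed with the matrix genes, fell. The ANKRD1 promoter window is shown because it holds the TEAD-type hexamer GGAATG, in capitals, at 2 places (RefSeq, GRCh38.p14, chr10:90921038-90921337, minus strand, printed 5′ to 3′ of the gene).
ANKRD1: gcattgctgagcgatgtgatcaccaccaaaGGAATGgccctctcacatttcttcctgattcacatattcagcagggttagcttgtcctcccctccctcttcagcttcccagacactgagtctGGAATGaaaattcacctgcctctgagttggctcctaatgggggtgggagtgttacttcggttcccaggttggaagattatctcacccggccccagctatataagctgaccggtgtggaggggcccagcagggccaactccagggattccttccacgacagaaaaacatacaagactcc

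Genes of the basement membrane and matrix went both ways, with 4 of 7 called higher and 2 lower. LOXL2, which cross-links collagen, was at -0.69, -0.55 and -0.41 in HD, against -2.66, -2.49 and -2.30 in CA (3.82-fold higher, adjusted p = 5.88e-06). COL17A1, a collagen of hemidesmosomes (1.01 ± 0.14), and LAMA3, a chain of laminin (1.40 ± 0.19), rose as well. These are components of the epithelial anchor to the basement membrane. Fibronectin, FN1, an adhesive matrix protein, was at 2.23, 2.27 and 2.44 in HD, against 4.52, 4.00 and 3.96 in CA (3.61-fold lower, adjusted p = 5.24e-06). HD samples lay within 0.22 of each other while CA sample 1 was above the other two. COL18A1, the collagen that yields endostatin, fell by 0.82 (SE 0.23), but against the CA sample of plate 6 it was at -0.47 and did not pass (adjusted p = 0.231). The metalloprotease MMP7 was at 0.51 ± 0.23 and was not called (adjusted p = 0.0568). Its levels were 2.60, 2.37 and 2.21 in HD, against 2.32, 1.79 and 1.54 in CA, and without CA sample 1 it passed (0.73, adjusted p = 0.0111). With plate as a block MMP7 was at 0.91 (adjusted p = 4.23e-04) and against plate 6 at 0.85 (adjusted p = 0.0151), and passed in both. Both junction genes fell, namely E-cadherin CDH1, which holds epithelial cells together (0.40, 0.46 and 0.67 in HD, against 1.48, 1.39 and 1.25 in CA), and the pore-forming claudin CLDN2 (3.24, 2.96 and 3.12 in HD, against 4.15, 4.13 and 4.14 in CA). In neither did the groups overlap, and the falls were 0.87 and 1.03 (SE 0.11 and 0.10).

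EGFR ligands and genes induced by MAPK signalling rose in 7 of 9 cases and fell in 0 (77.8% called, against 76.2% of all genes tested), with a median of 1.21. AREG, amphiregulin, a ligand shed by injured epithelium, was at 1.66, 1.44 and 1.28 in HD, against -0.22, 0.10 and 0.02 in CA (2.82-fold higher, adjusted p = 5.09e-05). The second ligand, epiregulin EREG, was at 1.55, 1.62 and 1.68 in HD, against 0.10, 0.61 and 0.40 in CA (1.24 ± 0.23). The lowest HD sample was above the highest CA sample by 1.18 in AREG and by 0.95 in EREG. The immediate early factor EGR2 was at -4.10, -4.85 and -3.85 in HD, against -7.71, -5.62 and -5.55 in CA (2.03 ± 0.55, adjusted p = 0.00499), and CA sample 1 accounted for much of its spread. Without that sample EGR2 was at 1.32 (adjusted p = 0.0151), and against the CA sample of plate 6 alone at 1.29 (adjusted p = 0.183). The feedback phosphatases DUSP6 (1.21 ± 0.34) and DUSP10 (0.80 ± 0.20), which dampen MAPKs, the membrane protein EMP1 (1.17 ± 0.23) and PHLDA1 (1.28 ± 0.21) also rose. DUSP22 (0.10 ± 0.11) and the chromatin protein HMGA1 (-0.25 ± 0.24) were not called. HMGA1 had levels of -4.22, -4.05 and -3.23 in HD, against -3.50, -3.69 and -3.58 in CA, and without HD sample 3 it passed as lower (-0.55, adjusted p = 0.0242). The AREG promoter is shown beside that of FN1 because both hold the same element as PPP1R15A, in capitals, although AREG rose and FN1 fell (RefSeq, GRCh38.p14, AREG chr4:74444886-74445185, plus strand, and FN1 chr2:215436019-215436318, minus strand). The element began 65 bases before the start of AREG and 183 bases before that of FN1.
AREG: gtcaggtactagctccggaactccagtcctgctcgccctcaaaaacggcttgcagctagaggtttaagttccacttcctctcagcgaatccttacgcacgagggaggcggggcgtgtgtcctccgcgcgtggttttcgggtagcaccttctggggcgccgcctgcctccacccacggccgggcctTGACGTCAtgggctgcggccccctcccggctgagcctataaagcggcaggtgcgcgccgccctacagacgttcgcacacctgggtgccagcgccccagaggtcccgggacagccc
FN1: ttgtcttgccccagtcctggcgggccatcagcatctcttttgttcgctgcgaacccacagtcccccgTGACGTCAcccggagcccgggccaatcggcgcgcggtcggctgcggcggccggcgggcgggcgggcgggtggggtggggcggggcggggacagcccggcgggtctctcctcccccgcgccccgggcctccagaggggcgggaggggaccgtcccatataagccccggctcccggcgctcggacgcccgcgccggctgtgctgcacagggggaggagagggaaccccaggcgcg

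**Figure D2:**
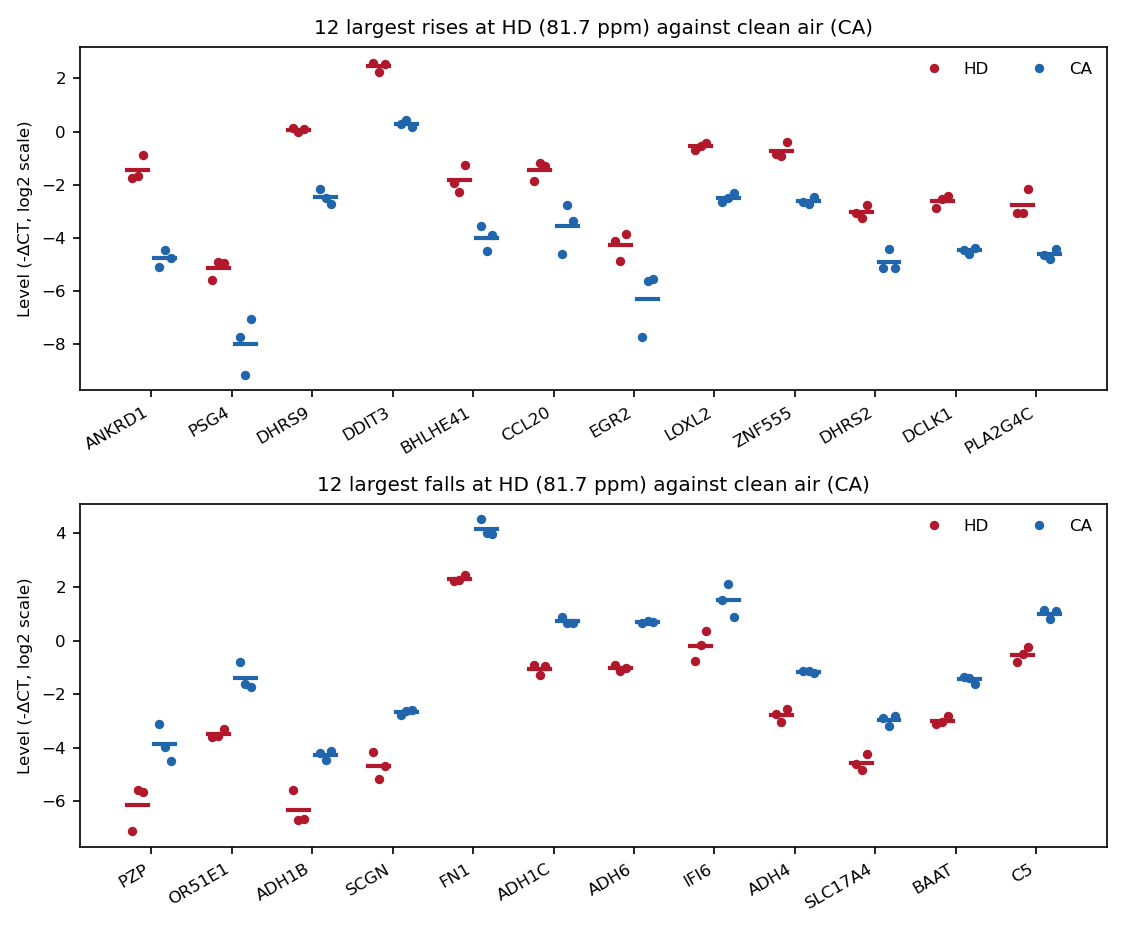
Level of each HD and CA sample (negative normalised CT, log2 scale) for the 12 largest rises and the 12 largest falls among called genes with a product in all 6 samples, with the mean of each group as a bar. In all 24 genes the 3 HD samples lie on one side of the 3 CA samples, as in 218 of all 282 genes tested (77.3%). The 24 were picked by the size of their difference in these same samples, so this separation is no separate result. CA sample 1 (leftmost point) is the lowest in several genes, among them EGR2, CCL20 and ANKRD1, and the highest in several others, among them FN1, OR51E1 and PZP.

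Genes of NF-kB signalling and cytokines were called in 8 of 9 cases (88.9%, against 76.2% of all genes tested), 6 higher and 2 lower, with a median of 1.01. CCL20, a chemokine for dendritic cells and lymphocytes, was at -1.84, -1.19 and -1.30 in HD, against -4.58, -2.74 and -3.36 in CA (2.12 ± 0.59, adjusted p = 0.0054). Its spread within CA was large, and against plate 6 alone it was at 1.91 and fell short (adjusted p = 0.075). The TNF receptor family member TNFRSF9 gave no product in CA sample 1, so its levels were -4.63, -4.68 and -3.69 in HD, against -10.01 and -8.11 in CA with 2 CA samples (4.73 ± 0.90, adjusted p = 4.95e-04). The -10.01 of CA sample 2 lies at 35 cycles, the value to which the authors had set later wells. The size of the TNFRSF9 difference therefore depends on that limit. The receptor of TWEAK, TNFRSF12A, was at 1.15, 1.05 and 1.41 in HD, against -0.73, 0.02 and 0.02 in CA (1.43 ± 0.22), and the NF-kB subunit NFKB2 at -0.53, -0.40 and 0.23 in HD, against -1.93, -1.26 and -1.55 in CA (1.35 ± 0.25). The regulators NFKBIZ (1.01 ± 0.20) and BIRC3 (0.80 ± 0.17), an inhibitor of apoptosis, rose less. IL33, an alarmin stored in epithelial nuclei, was at -0.81, -0.60 and -0.88 in HD, against 0.35, 0.33 and 0.01 in CA, a fall of 1.00 (SE 0.21). Its receptor IL1RL1 gave a product in all HD wells and in 1 CA well, and was therefore not tested. The neutrophil chemokine CXCL5 did not pass and had an interval of -0.34 to 0.31.

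S100 proteins, annexins, keratins and related membrane proteins were called higher in 7 of 9 cases, with a median of 0.83. The share called was close to that of all genes tested (77.8%, against 76.2%). Without normalisation genes 4 of the 9 were called higher, and S100A4 (0.36), S100A6 (0.45) and ANXA3 (0.58) no longer passed (adjusted p = 0.16, 0.0603 and 0.066). EMP3, a small membrane glycoprotein, had levels of 2.57, 2.53 and 2.62 in HD, against 1.17, 1.23 and 1.23 in CA (2.57-fold higher, adjusted p = 3.84e-07), with a range of 0.08 in HD and 0.06 in CA. EMP3 was also 1 of 3 genes (1.06% of 282) that differed between NEC and CA, where NEC was lower by 1.03 (SE 0.09, adjusted p = 1.69e-05), so the order of its means was NEC, CA, HD. The calcium-binding S100A2 was at -3.45, -4.09 and -3.63 in HD, against -5.54, -5.99 and -5.00 in CA (1.79 ± 0.34), S100A4 at 5.61, 5.47 and 5.51 in HD, against 4.65, 5.10 and 4.81 in CA (0.68 ± 0.17) and S100A6 at 9.30, 8.92 and 9.22 in HD, against 7.88, 8.67 and 8.59 in CA (0.77 ± 0.20). CA sample 1 was the lowest for S100A4 and S100A6, and against the CA sample of plate 6 S100A6 was at 0.55 (adjusted p = 0.128). The annexins ANXA10 (1.08 ± 0.16) and ANXA3 (0.89 ± 0.19) and the keratin KRT80 (0.83 ± 0.14) rose. KRT18, a keratin of simple epithelium, was at -0.02 ± 0.11 and S100A11 at 0.21 ± 0.13, and neither was called.

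Microtubule genes rose in 4 of 5 cases. DCLK1, a microtubule-associated kinase, was at -2.87, -2.52 and -2.43 in HD, against -4.44, -4.59 and -4.36 in CA (3.63-fold higher), and the tubulins TUBA1C (0.84 ± 0.10) and TUBA4A (0.84 ± 0.13) rose with little spread. The markers of ciliated cells on the panel went opposite ways. TPPP3, which polymerises tubulin, fell by 1.34 (-5.13, -5.58 and -5.59 in HD, against -4.40, -3.97 and -3.92 in CA). CFAP53, a cilium protein, was called as higher with 2 HD samples (-5.17 and -3.93 in HD, against -5.82, -7.50 and -5.54 in CA), but without CA sample 2 it was at 1.13 and did not pass (adjusted p = 0.135). It also fell short with plate as a block (1.27, adjusted p = 0.204) and against the CA sample of plate 6 (0.99, adjusted p = 0.397). The leukocyte-type gene CD79A was at 1.41, 1.70 and 1.70 in HD, against 0.45, 0.51 and 0.24 in CA, a rise of 1.20 ± 0.15, and the lectin CLEC2B rose by 1.07 ± 0.12, whereas the lectin CD302 fell by 1.33 and the NAD-consuming ectoenzyme CD38 by 1.16 (SE 0.15 and 0.19). All samples were cells of the A549 line, and how these values vary between cells of the line was not tested.

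Oxidoreductases of alcohols and retinoids split by family. Alcohol dehydrogenases, which oxidise ethanol and retinol, fell in 4 of 5 cases (80% called, against 76.2% of all genes tested) with a median of -1.70. ADH6 was at -0.90, -1.14 and -1.01 in HD, against 0.66, 0.71 and 0.68 in CA (3.26-fold lower, adjusted p = 3.84e-07), with a range of 0.24 in HD and 0.05 in CA. ADH1C was at -0.91, -1.27 and -0.96 in HD, against 0.88, 0.64 and 0.66 in CA, ADH4 at -2.75, -3.03 and -2.56 in HD, against -1.14, -1.14 and -1.21 in CA and ADH1B at -5.58, -6.70 and -6.66 in HD, against -4.20, -4.46 and -4.12 in CA, with falls of 1.78, 1.61 and 2.05. In each of these the groups lay well apart. ADH1A, at -7.66, -7.51 and -6.30 in HD, against -6.07, -6.00 and -6.61 in CA, was not called (adjusted p = 0.274), and its HD and CA samples overlapped. In contrast, the retinol dehydrogenase DHRS9 was at 0.13, 0.00 and 0.10 in HD, against -2.17, -2.49 and -2.71 in CA (5.79-fold higher, adjusted p = 1.67e-06). The reductase DHRS2 was at -3.05, -3.23 and -2.75 in HD, against -5.14, -4.42 and -5.11 in CA (1.88 ± 0.29). Its HD and CA samples were 1.19 apart at the nearest. CYP24A1, which inactivates vitamin D (0.47 ± 0.12), and CYP1B1, a target of the dioxin receptor (0.94 ± 0.13), rose less. UGT1A9, a glucuronosyl transferase, fell by 0.95, but was at -0.38 against the CA sample of plate 6 (adjusted p = 0.353), and without CA sample 1 it was at -0.59 (adjusted p = 0.025).

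All 9 genes of cholesterol synthesis and sterol handling rose at HD, with a median of 0.57. NPC1, which exports cholesterol from lysosomes, was at 1.00, 1.53 and 1.79 in HD, against 0.47, 0.57 and 0.56 in CA (0.91 ± 0.19). MVD (0.87 ± 0.18), EBP (0.81 ± 0.13), IDI1 (0.57 ± 0.16), FDPS (0.55 ± 0.13) and FDFT1 (0.44 ± 0.10) are enzymes of the pathway, INSIG1 (0.83 ± 0.14) retains its regulator in the endoplasmic reticulum, and STARD4 (0.46 ± 0.12) carries cholesterol. These rises were smaller than those of the stress genes, and without normalisation genes 3 of the 9 were called (median 0.26). CYP51A1, the lanosterol demethylase, rose by 0.29 ± 0.12 and was the smallest. Its call was lost without any HD sample and without CA sample 1 or 3 (adjusted p = 0.0589 to 0.166), with the plate block (0.20, adjusted p = 0.14) and against plate 6 alone, and without normalisation genes it was at -0.02. The acetate-activating ACSS2 (0.86 ± 0.17) and the fatty acid carrier FABP5 (0.59 ± 0.12) rose, and the desaturase SCD (0.35 ± 0.13) was called but did not pass without HD sample 2 or 3 or without CA sample 1 (adjusted p = 0.0516, 0.0997 and 0.119), nor with plate as a block (0.25, adjusted p = 0.134) or against plate 6 (0.28, adjusted p = 0.231). FASN, fatty acid synthase, was at 3.58, 3.58 and 3.76 in HD, against 3.51, 3.55 and 3.44 in CA and was not called. By contrast, BAAT, which conjugates bile acids, was at -3.10, -3.04 and -2.83 in HD, against -1.35, -1.38 and -1.62 in CA (2.9-fold lower).

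The fibrinogen chains and coagulation factors fell in 4 of 5 cases, with a median of -1.31. FGA was at 3.74, 3.57 and 3.66 in HD, against 4.57, 5.41 and 5.37 in CA (2.76-fold lower, adjusted p = 2.20e-04), FGB at 4.22, 4.08 and 4.33 in HD, against 5.24, 5.86 and 5.91 in CA (-1.46 ± 0.22) and FGG at 4.92, 4.79 and 4.94 in HD, against 5.65, 6.49 and 6.46 in CA (-1.31 ± 0.26). These chains are encoded side by side on chromosome 4 and assemble into one protein. The 3 genes had the same pattern over samples, with CA sample 1 below the other two and HD samples within 0.25 of each other. Against the CA sample of plate 6 FGA was at -1.71, FGB at -1.70 and FGG at -1.58. Coagulation factor F5 fell by 0.89 (SE 0.12). The coagulation inhibitor TFPI2 rose, at 4.83, 4.71 and 4.70 in HD, against 2.97, 3.81 and 3.82 in CA (1.21 ± 0.25). The FGA and FGB promoters are shown because both fell and both hold the element GTTAAT of the hepatocyte factor HNF1 near the start, here on the reverse strand as ATTAAC, in capitals (RefSeq, GRCh38.p14, FGA chr4:154590693-154590992, minus strand, and FGB chr4:154562730-154563029, plus strand). It began 52 bases before the start in FGA and 51 bases in FGB.
FGA: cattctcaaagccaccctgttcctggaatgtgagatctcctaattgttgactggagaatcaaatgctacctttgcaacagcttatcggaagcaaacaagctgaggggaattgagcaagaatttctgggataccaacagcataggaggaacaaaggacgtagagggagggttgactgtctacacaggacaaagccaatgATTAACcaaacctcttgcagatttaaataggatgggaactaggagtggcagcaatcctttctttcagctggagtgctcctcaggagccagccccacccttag
FGB: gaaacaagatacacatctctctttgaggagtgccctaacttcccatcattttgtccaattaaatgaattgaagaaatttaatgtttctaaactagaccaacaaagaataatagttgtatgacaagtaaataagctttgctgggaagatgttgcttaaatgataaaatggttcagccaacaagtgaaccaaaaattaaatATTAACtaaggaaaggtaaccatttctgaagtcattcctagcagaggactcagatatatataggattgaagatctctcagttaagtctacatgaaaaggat

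Complement genes fell in 7 of 8 cases and rose in 0, with a median of -0.95. C5, the precursor of a chemoattractant, was at -0.80, -0.51 and -0.26 in HD, against 1.14, 0.79 and 1.09 in CA (2.89-fold lower, adjusted p = 5.88e-06). The proteases C1S (-1.15 ± 0.14) and C1R (-1.06 ± 0.21) of the classical pathway fell together. The regulators C4BPA (-1.15 ± 0.14) and CFI (-0.74 ± 0.12), which restrain the cascade, and factor B, CFB (-0.74 ± 0.12), which drives its alternative arm, were also lower. CFHR2 was at -0.67 ± 0.31 and not called (adjusted p = 0.0608), and passed without HD sample 1 or CA sample 3 (adjusted p = 0.0361 and 0.0414). Among plasma carriers and protease inhibitors 4 of 8 fell and 2 rose, and the share called was close to that of all genes tested (75%, against 76.2%). PZP, a broad protease trap, was at -7.12, -5.59 and -5.67 in HD, against -3.12, -3.98 and -4.51 in CA (4.77-fold lower, adjusted p = 1.38e-04), with HD sample 1 the lowest, and was at -1.61 against plate 6. Albumin, ALB, was at -4.33, -5.02 and -4.76 in HD, against -4.07, -3.12 and -3.41 in CA (-1.17 ± 0.24), and the groups were separated by a narrow gap of 0.26. APOH (-0.82 ± 0.18), which binds phospholipids, and the inter-alpha-trypsin inhibitor chain ITIH2 (-1.05 ± 0.17) fell. The trypsin inhibitor SPINK1, at -0.25, -0.50 and -0.68 in HD, against -2.11, -1.95 and -2.08 in CA (2.97-fold higher, adjusted p = 4.75e-06), and the thrombin inhibitor SERPINE2 (1.12 ± 0.13) rose. SERPINA1, antitrypsin, was at -0.67 ± 0.35 and was not called (adjusted p = 0.1), but passed with CA sample 1 left out (adjusted p = 0.0202) and with plate as a block (-0.98, adjusted p = 0.0063). The haem carrier HPX was at -3.83, -4.34 and -4.50 in HD, against -5.37, -3.54 and -3.29 in CA, where the CA samples enclosed those of HD.

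Of 16 transporters and their scaffolds, 11 fell and 3 rose, with a median of -0.82. The organic anion and phosphate transporters SLC17A4 (-4.60, -4.85 and -4.22 in HD, against -2.91, -3.19 and -2.80 in CA) and SLC17A3 (-1.33 ± 0.16), the bicarbonate transporter SLC4A4 (-1.45 ± 0.21), the vitamin C transporter SLC23A1 (-1.21 ± 0.13) and the dicarboxylate transporter SLC13A2 (-1.43 ± 0.41) fell. PDZK1, a scaffold that holds such transporters at the apical membrane, was at -2.90, -3.04 and -2.71 in HD, against -1.85, -2.02 and -1.87 in CA (-0.97 ± 0.11, adjusted p = 7.69e-06). The potassium channel KCNJ16 (-0.93 ± 0.14) and the organic anion carrier SLCO2B1 (-0.96 ± 0.24) were lower as well. SLC39A11, a zinc transporter, was called at -0.67 ± 0.21 but fell short without HD sample 1 or CA sample 2 (adjusted p = 0.0578 and 0.0554), with plate as a block (-0.58, adjusted p = 0.0597) and against plate 6 (-0.41, adjusted p = 0.259). The risers were the potassium channel KCNMA1 (-3.78, -3.58 and -3.07 in HD, against -4.59, -5.95 and -4.58 in CA) and the neutral amino acid transporters SLC6A15 (0.78 ± 0.13) and SLC6A17 (1.03 ± 0.21). Against the CA sample of plate 6, 7 of the 16 were called lower and 2 higher, with a median of -0.59. There KCNMA1 was at 1.10 (adjusted p = 0.101), SLCO2B1 at -0.60 (adjusted p = 0.149) and SLC13A2 at -1.20 (adjusted p = 0.091), and none of these passed.

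Receptor and calcium genes went both ways, while the developmental genes fell. Of 8 G protein receptor and calcium genes tested, 3 rose, 3 fell and 2 were not called (75% called, against 76.2% of all genes tested). OR51E1, an olfactory-type receptor for fatty acids, was at -3.60, -3.54 and -3.30 in HD, against -0.82, -1.63 and -1.72 in CA (4.26-fold lower, adjusted p = 5.88e-06), and secretagogin SCGN, a calcium sensor of secretory cells, at -4.15, -5.18 and -4.66 in HD, against -2.79, -2.64 and -2.59 in CA (3.98-fold lower). The groups were apart by 1.57 in OR51E1 and by 1.37 in SCGN. The adrenergic receptor ADRA2A fell by 1.15 (SE 0.37), which rested on HD sample 3, without which it was at -0.69 (adjusted p = 0.0552). The kinase anchor AKAP2 rose by 1.40 ± 0.25. HES1, a Notch target, was at -0.78, -1.10 and -0.74 in HD, against -0.19, 0.78 and 0.54 in CA, the homeobox gene HOXC5 at -4.93, -5.03 and -4.45 in HD, against -3.64, -3.61 and -3.62 in CA and the ligand WNT4 at -1.65, -1.56 and -1.61 in HD, against -0.83, -0.87 and -0.78 in CA, so that all 3 developmental regulators fell. Calmodulin CALM3 (-0.11 ± 0.11) and the G protein subunit GNAI1 (-0.25 ± 0.15) were not called. Of the genes known from placenta, PSG4, a pregnancy glycoprotein, was at -5.56, -4.92 and -4.92 in HD, against -7.72, -9.14 and -7.04 in CA (2.83 ± 0.42) and the relaxin-like INSL4 at 1.98, 1.86 and 1.99 in HD, against 2.49, 3.77 and 3.48 in CA (-1.30 ± 0.31). CA samples spread over 2.09 in PSG4, whereas HD samples lay within 0.65 of each other.

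Of 4 genes listed as interferon-induced, 2 were called lower and 1 higher. IFI6, a mitochondrial interferon-induced protein, was at -0.77, -0.15 and 0.35 in HD, against 1.50, 2.11 and 0.89 in CA (-1.69 ± 0.38, adjusted p = 0.00117). Its level in NEC was also below CA, by 1.81 (SE 0.38, adjusted p = 0.0326), and with CA and NEC together as control IFI6 was at -0.79 and did not pass (adjusted p = 0.184). Against the CA sample of plate 6 it was at -1.08 (adjusted p = 0.0938). IFIT1, a sensor of foreign RNA, was called at -1.13 ± 0.40 but not without HD sample 1 or 2 or CA sample 2 (adjusted p = 0.0643, 0.0705 and 0.104), nor with plate as a block (-0.85, adjusted p = 0.136), nor against CA and NEC of plate 6 (-0.42, adjusted p = 0.448) or of all plates (-0.69, adjusted p = 0.124). BST2, tetherin, was at -0.35 ± 0.43 and not called. The only gene of the list to rise was IFITM10 (1.02 ± 0.20), which was listed by its family name. Whether interferon induces IFITM10 in these cells was not tested.

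Circadian repressors and several zinc finger genes rose. BHLHE41, known as DEC2, was at -1.94, -2.27 and -1.25 in HD, against -3.55, -4.50 and -3.89 in CA (4.47-fold higher, adjusted p = 7.79e-05), and NR1D1, the haem receptor REV-ERB alpha, at -3.75, -3.36 and -2.49 in HD, against -4.61, -4.41 and -4.00 in CA (1.14 ± 0.32). In NR1D1 HD sample 3 was far above the other two, and against plate 6 alone it was at 0.79 (adjusted p = 0.175). ZNF555, a zinc finger gene of little known function, was at -0.84, -0.92 and -0.38 in HD, against -2.63, -2.74 and -2.47 in CA (3.73-fold higher, adjusted p = 8.08e-07). ZNF165 (1.14 ± 0.17), ZNF57 (0.82 ± 0.17) and the mRNA decay factor ZFP36L1 (1.37 ± 0.19) rose, whereas ZNF586 was at -0.23 ± 0.18. Glycolysis genes were called higher in 4 of 7 cases and lower in 0, a smaller share than over all genes tested, and in 0 of 7 cases without normalisation genes. The 4 genes were ALDOC (0.86 ± 0.15), the regulators PFKFB4 (0.71 ± 0.18) and PFKP (0.55 ± 0.13) and the glucose-responsive arrestin ARRDC4 (-2.54, -2.69 and -1.58 in HD, against -3.06, -3.54 and -2.87 in CA). ARRDC4 was highest in HD sample 3 and was at 0.55 without it (adjusted p = 0.0157). Against plate 6 alone ARRDC4 (0.60, adjusted p = 0.161) and PFKFB4 (0.62, adjusted p = 0.0696) fell short. ALDOA (0.07 ± 0.16), LDHA (0.26 ± 0.12) and PGK1 (0.23 ± 0.14) were not called. LDHA passed without HD sample 1 or CA sample 2 (adjusted p = 0.0172 and 0.0414), ALDOA without HD sample 1 (0.31, adjusted p = 0.0201) and PGK1 without HD sample 2 (0.35, adjusted p = 0.0395).

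**Figure D3:**
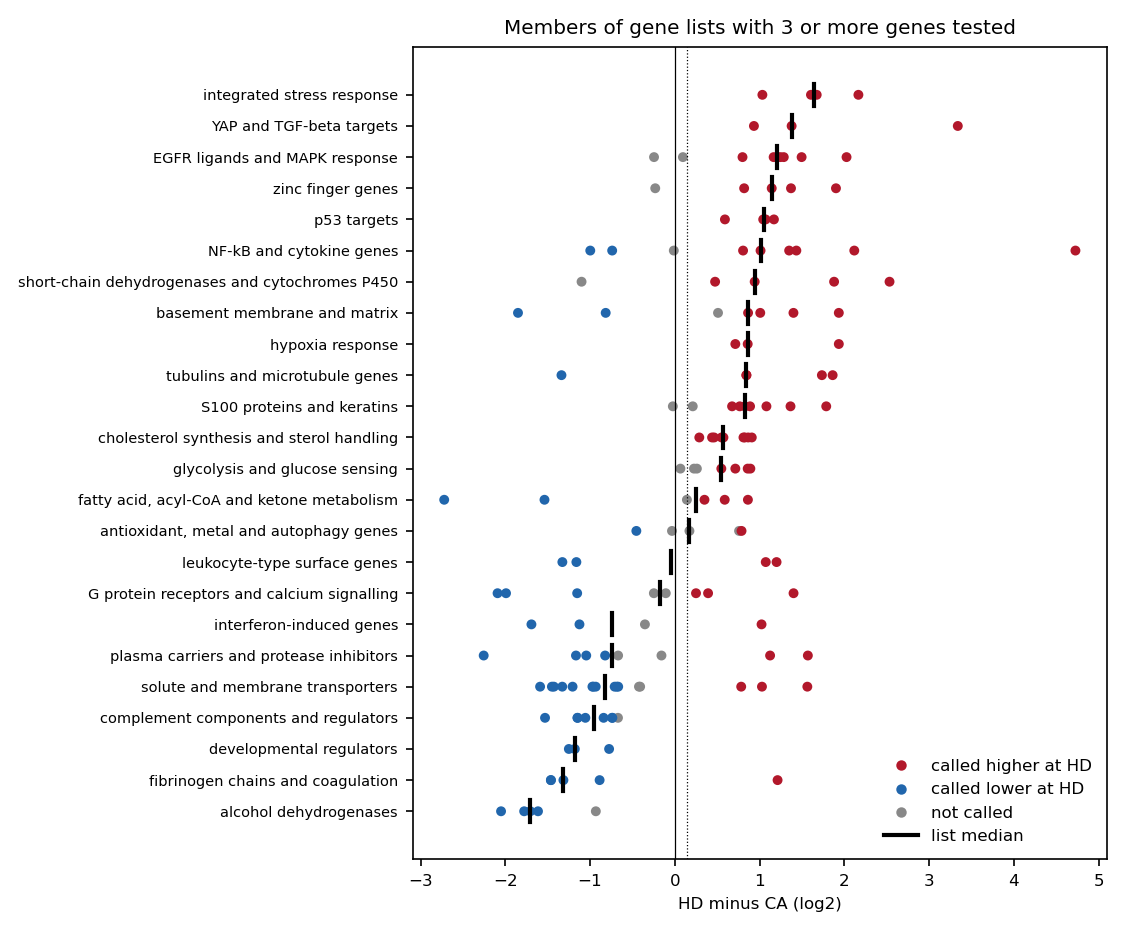
Difference of HD minus CA (log2) for every gene tested in the lists with 3 or more genes tested, 1 row per list, sorted by the list median (black bar). Colours mark the call of each gene, the dotted line is the median of all genes tested (0.14), and list medians run from -1.70 in alcohol dehydrogenases to 1.64 in the integrated stress response.

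Antioxidant, metal and autophagy genes changed little by comparison. SQSTM1, the autophagy receptor p62, was at 6.21, 6.36 and 6.53 in HD, against 5.47, 5.64 and 5.62 in CA (0.79 ± 0.13), and catalase, CAT, fell by 0.45 (SE 0.11), with -0.29 and no call against plate 6 (adjusted p = 0.133). The ferritin light chain FTL (95% interval -0.25 to 0.19) and the tetraspanin CD63 (95% interval -0.07 to 0.42) were not called. The metallothionein MT2A had no product in CA sample 1 and late CTs elsewhere (-8.14, -9.69 and -10.07 in HD, against -10.01 and -10.10 in CA), and was not called (adjusted p = 0.316). Histone genes HIST1H2BJ (-0.77, -0.69 and -0.68 in HD, against -1.67, -1.60 and -1.87 in CA), HIST3H2BB (0.89 ± 0.12) and HIST1H2BD (0.63 ± 0.09) rose, all of them members of the H2B family, and such near-identical copies may share primers.

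Several large differences lay outside the lists. PLA2G4C, a calcium-independent phospholipase A2, was at -3.07, -3.06 and -2.15 in HD, against -4.64, -4.79 and -4.42 in CA (3.61-fold higher, adjusted p = 2.39e-05), and CDCP1, a membrane substrate of SRC kinases, at -2.76, -2.49 and -2.35 in HD, against -3.89, -4.78 and -4.41 in CA (3.55-fold higher). The small GTPase ARL14 was at -1.35, -1.86 and -1.06 in HD, against -2.78, -2.64 and -3.37 in CA (1.50 ± 0.27). None of these groups overlapped. BEX2 was at -0.11, -0.32 and -0.06 in HD, against -1.42, -1.48 and -1.36 in CA (1.26 ± 0.12, adjusted p = 3.23e-06), with a range of 0.26 in HD and 0.12 in CA. NAV2 (1.33 ± 0.18), which guides neurite growth, the injury-induced factor KLF6 (1.30 ± 0.26), the small MAF factor MAFF (1.11 ± 0.20), the lymphocyte receptor SLAMF7 (1.45 ± 0.28) and SNAPC1 (1.05 ± 0.17), part of the complex that transcribes small nuclear RNA genes, also rose. On the other side, the gap junction gene GJB1, connexin 32, was at -2.60, -2.54 and -1.88 in HD, against -0.90, -0.93 and -0.70 in CA (2.82-fold lower). IQGAP2, a scaffold of the cytoskeleton, was at -2.14, -2.17 and -2.32 in HD, against -0.45, -0.92 and -0.97 in CA and NDRG2, a stress and differentiation gene, at -3.75, -3.80 and -3.73 in HD, against -2.17, -2.41 and -2.66 in CA, with falls of 1.43 and 1.35. The calcium channel CACNA1D (-1.28 ± 0.15), the adhesion molecules CEACAM7 (-1.19 ± 0.14) and NRCAM (-1.08 ± 0.22), the protease HABP2 (-1.14 ± 0.24) and the collagen receptor MRC2 (-1.07 ± 0.15) fell. SEMA3E, a guidance ligand, was called at -1.26 ± 0.40, but HD sample 2 was far below the other two (-4.39, -5.99 and -3.87 in HD, against -3.03, -3.52 and -3.92 in CA), and it was at -0.64 without that sample (adjusted p = 0.032) and did not pass without CA sample 1 (-1.03, adjusted p = 0.0503), with plate as a block (-0.99, adjusted p = 0.102) or against plate 6 (-0.82, adjusted p = 0.246). MTRNR2L9, a humanin-like gene with many near-identical copies of mitochondrial origin, was called at 0.98 ± 0.37 but not without HD sample 1 or CA sample 1 or 2 (adjusted p = 0.148, 0.109 and 0.0661), nor with plate as a block (0.78, adjusted p = 0.136), and was at 0.45 against plate 6 (adjusted p = 0.485).

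Against these, 67 genes were not called. Those with the narrowest intervals about 0 included TEAD1, the DNA-binding partner of YAP (95% interval -0.25 to 0.19), the nuclear envelope protein BANF1 (-0.30 to 0.19), the RNA-binding YTHDF2 (-0.16 to 0.29) and the small GTPase RAB33B (-0.17 to 0.30). In these genes HD and CA samples overlapped. TEAD1 had levels of 1.13, 1.14 and 1.34 in HD, against 1.19, 1.34 and 1.17 in CA.

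Promoter sequences were looked up for all genes tested, and 230 of the 282 matched an entry, 100 that rose, 80 that fell and 50 not called. Windows of 300 bases were searched on both strands for 26 short motifs, which were chosen with the results known. The HNF1 element GTTAAT was in 14 of 80 promoters of genes that fell (17.5%), in 5 of 100 of genes that rose and in 1 of 50 of genes not called, against 6.88% of all 35116 promoters of the table. ALB, C4BPA, ADH4, GJB1, SLC13A2 and SLC23A1 were among the 14, along with FGA and FGB. The full cyclic AMP element TGACGTCA was in 5 promoters of genes that rose (AREG, IFRD1, MAFF, PPM1D and PPP1R15A), in that of FN1 among those that fell and in that of LDHA among those not called, against 1.85% of all promoters. The AP-1 site TGANTCA was in 13 of 100, 7 of 80 and 6 of 50 (7.71% of all), and the TEAD hexamer GGAATG in 14 of 100, 10 of 80 and 3 of 50 (14.03% of all). GGAATG was thus about as frequent in genes that rose as in all promoters, and it was also found in FGA and FGB. None of these 4 motifs contains another. A match is a description of the letters and not of binding.

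HD was set against the CA and NEC samples of its own plate to see how far the differences held within plate 6. Against the single CA sample of plate 6, assumed to vary like the other groups, all 215 called genes kept their direction and 163 kept their call. With the CA and NEC samples of plate 6 together, 214 of the called genes could be tested, all kept their direction and 194 their call. With plate as a block in the model, all 215 kept their direction and 199 their call. ANKRD1 was at 3.32, DDIT3 at 2.27, DHRS9 at 2.79, FN1 at -1.65 and ADH6 at -1.70 against the CA sample of plate 6. TNFRSF9 and PSG4 were smaller there than over all CA samples, at 3.77 and 1.91. HABP2 (-0.66, adjusted p = 0.091), APOH (-0.55), BIRC3 (0.59), DUSP6 (1.02), IDI1 (0.46) and IL33 (-0.78) also did not pass against it. Without normalisation genes the calls of ALDOC, BIRC3, CYP24A1, DUSP10, FABP5, FDFT1, FDPS, HIST1H2BD, IDI1, IFRD1, NPC1, NR1D1, PFKFB4, PFKP, SCD, SLC6A15, SQSTM1, STARD4 and ZNF57 were lost as well, all of them rises.

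**Figure D4:**
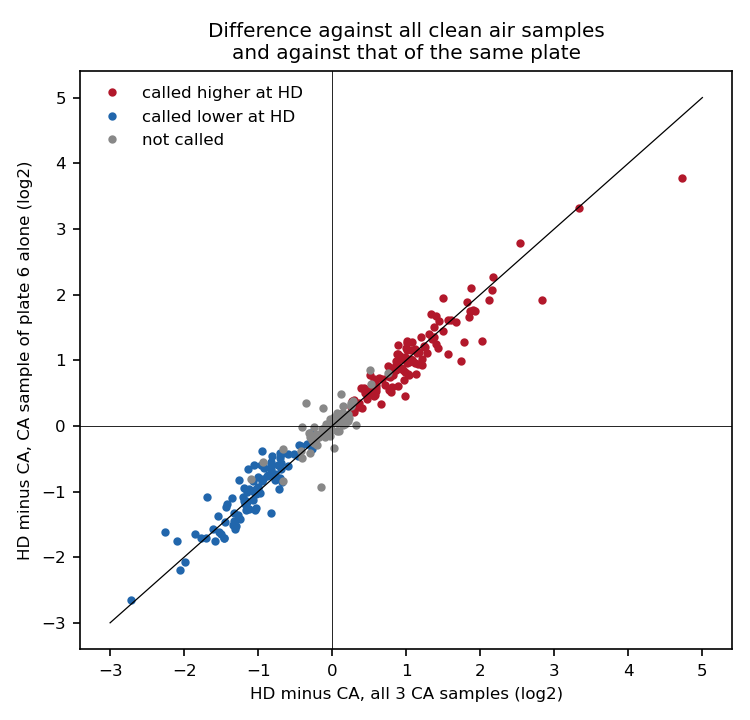
Difference of HD minus CA (log2) from all 3 CA samples on the horizontal axis and from the CA sample of plate 6 alone on the vertical axis, 1 point per gene tested, with the line of equal values. Colours mark the call over all CA samples, and all 215 called genes have the same sign on both axes.

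HD was also set against MD, the next lower concentration. HD differed from MD in 58 of 284 genes (20.4%), 35 higher (12.3%) and 23 lower (8.1%), against 12 higher and 37 lower without normalisation genes, and MD samples came from plate 5, so plate and concentration cannot be told apart here. Leaving out 1 HD or MD sample gave 25 to 68 genes, with 68 without MD sample 3. The study removed MD sample 3 from its TempO-Seq data as an outlier, whereas it was kept here. Of the 215 genes called against CA, 55 also differed from MD, and both comparisons used the same HD samples. DDIT3 had levels of 0.48, 0.28 and 0.31 in LD, 0.45, 0.51 and 1.38 in MD and 2.60, 2.24 and 2.55 in HD, and HD was above MD by 1.68 ± 0.24 (adjusted p = 8.06e-04). ANKRD1 was at -4.62, -3.99 and -4.74 in LD, -3.86, -4.08 and -3.57 in MD and -1.72, -1.68 and -0.88 in HD, above MD by 2.41 ± 0.35. BHLHE41 was at -3.40, -3.68 and -4.53 in LD, -3.97, -3.95 and -3.57 in MD and -1.94, -2.27 and -1.25 in HD, above MD by 2.01 ± 0.33. In these 3 genes the mean of MD lay nearer to that of CA than to that of HD. EGR2 (2.06 ± 0.55), PLA2G4C (1.53 ± 0.24), ZNF555 (1.48 ± 0.15), DHRS2 (1.35 ± 0.29) and PPP1R15A (1.13 ± 0.22) also differed between HD and MD. In contrast, LOXL2 was at -1.52, -1.92 and -1.27 in LD, -0.85, -0.97 and -0.46 in MD and -0.69, -0.55 and -0.41 in HD, and the difference of HD from MD was 0.21 ± 0.20 (adjusted p = 0.479). LAMA3 differed from MD by -0.05 ± 0.19 and NPC1 by -0.01 ± 0.19, neither of which passed. FN1 differed from MD by -0.51 ± 0.19 (adjusted p = 0.0673). Among genes that fell, PZP (-1.32 ± 0.38), OR51E1 (-0.82 ± 0.22), SCGN (-0.82 ± 0.22), ADH4 (-0.66 ± 0.15) and GJB1 (-0.62 ± 0.20) lay below MD.

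**Figure D5:**
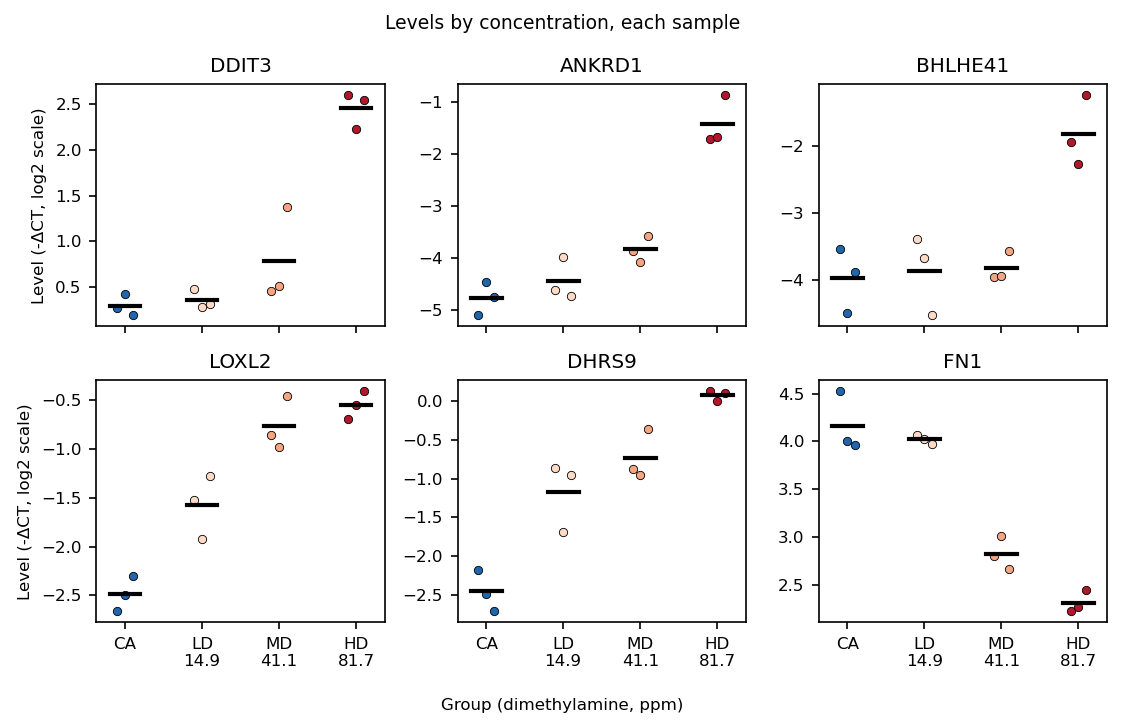
Level of each sample (negative normalised CT, log2 scale) in CA, LD, MD and HD for DDIT3, ANKRD1, BHLHE41, LOXL2, DHRS9 and FN1, with the group mean as a bar. DDIT3, ANKRD1 and BHLHE41 stand apart at HD, while LOXL2 and FN1 are displaced at MD too.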

How the data were processed

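RNA levels of 296 genes were measured by RT-qPCR on customised PCR arrays in 15 samples, of which 3 HD and 3 CA samples form the main comparison. Per the file headers, the first deposited matrix holds the CT of each well as exported (in PCR cycles, with nd where no fragment was found). The other matrix, also deposited, holds the CT as the authors normalised it to housekeeping genes, on a log2 scale where lower stands for more RNA; the sign was turned here. Testing pairs of genes showed that this matrix equals the CT minus the mean CT of GPN1 and TMEM184C within 8.6e-09 cycles. The authors had set 10 wells above 35 cycles to 35, which were kept, and had filled 25 nd wells, which were treated as missing here. A further deposited table holds the authors' fold changes of each group over CA and was not used.

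A gene was tested when both groups had at least 2 samples with a product, which left 282 genes. The normalisation genes, the repeat assay of ACTA2, 10 genes without product in any well and 2 genes measured in fewer CA samples were not tested. Tests were two-sided, from limma 3.58.1 (lmFit and eBayes, R 4.3.3) on all 15 samples with the 5 groups as terms, with Benjamini-Hochberg adjustment over all genes tested and a threshold of 0.05. On simulated data of 277 genes made from these samples for HD against CA (20 runs), the fit recovered 64.5% of changes of 0.5 and 91.7% of changes of 1 on the log2 scale, with 3.98% false calls. Alternatives were other normalisers, plate as a block, plate 6 alone, HD and CA alone in the fit, CA and NEC together, the authors' filled values, exported CTs above 35, leaving out late genes, models without moderation or with trend and robust moderation, and leaving out each sample.

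Gene lists came from textbook knowledge. Named genes were the 15 largest rises and falls called, up to 5 members of each list with the smallest adjusted p, genes with nd wells, genes with the lowest CTs, the 10 genes not called with intervals nearest to 0, and genes whose call was lost with the plate block or plate 6 controls; the remaining genes were named once their values were known. Some genes that this rule names are not reported here. The members, lists and motifs were chosen with earlier results of these data known. Gene symbols and promoters were taken from RefSeq (GRCh38.p14), where all 296 genes matched by accession. An array gives no read depth, and the number of samples limits the precision. Figures were drawn with matplotlib 3.10.9 in Python 3.11.15.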

Additional observations from a re-analysis of the deposited data

Results flagged for a closer look

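A pair of genes could not be tested because too few CA wells gave a product, but both gave a product in all 3 HD wells. AMHR2, the receptor of anti-Müllerian hormone, had CTs of 31.5, 32.3 and 31.2 in HD, against no product in all CA and NEC wells. It also gave a product in all 3 MD wells (33.3, 33.1 and 33.6) and in 1 LD well (34.6). If the CA wells without product are taken as 35 cycles, the mean level of HD was 12.5-fold higher, a log2 difference of 3.64. IL1RL1, the receptor of IL33, had CTs of 28.8, 28.0 and 27.8 in HD, against 31.6 in 1 of 3 CA wells and no product in the other CA wells and in all NEC wells. The mean level of HD was 3.66 above that CA sample on the log2 scale, or 12.6-fold higher, with no test. IL1RL1 also gave a product in 2 of 3 MD wells (31.6 and 29.6) and in 1 LD well (31.9). Wells without product also occurred in genes with early CTs, and their cause was not tested.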

How the results depend on the processing

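The counts of genes called at HD against CA stayed within 1.5 times of 215 under all alternatives run (165 to 225 genes), except that without normalisation genes 74 in place of 125 genes were called higher, and the median difference then was -0.17 in place of 0.14. Leaving out 1 HD or CA sample gave 200 to 209 genes called, 117 to 123 higher and 82 to 92 lower, with a median of 0.09 to 0.19. For single genes, 5304 of 5627 values under alternatives kept their side of the threshold, 243 no longer passed, 73 newly passed and 7 turned their sign. A turned sign was counted only for genes called in the main fit or in the alternative. Genes called in neither could turn uncounted, such as ALDOA, at 0.07 in the main fit and -0.25 without normalisation genes. The 7 counted values all turned without normalisation genes, which lowers every difference by 0.31 and so turns any smaller rise. They were not called there, namely CAMK2N1 (-0.0621), CYB5B (-0.0206), CYP51A1 (-0.0232), DYNLT3 (-0.0183), NSMCE2 (-0.0470), PANK3 (-0.0110) and RCOR1 (-0.0498).

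No paired analysis was possible because, for HD against CA, the CA labels give no replicate numbers that match those of HD. HD and MD share numbers, but same-numbered samples did not deviate together (r = 0.066, -0.031 and -0.069). Samples of unlike numbers had r from -0.24 to 0.27. With 3 samples per group these values cannot decide whether the numbers pair the samples, and the main fit used no pairing. With the replicate block, 32 in place of 58 genes were called between HD and MD, and leaving out 1 sample gave 25 to 68. The cause was not tested. Between NEC and CA, 3 genes were called (1.06%), 1 without normalisation genes, 10 with plate as a block and 1 to 2 with 1 sample left out. With 3 samples per group, and with late CTs near 35, small differences may have been missed.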
